A study of Mus musculus with 3 samples.

Results

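Of the 20479 RNAP2 peaks listed for mouse distal forelimb, 4829 (23.6%, 95% Wilson interval 23.0 to 24.2%) lay inside protein-coding genes, away from gene ends, and overlapped no Med12 peak. They were chosen by their width and position and by the Med12 list: a width under 4000 bp, no base shared with a listed Med12 peak, overlap with the span of a protein-coding gene, no overlap with 1 kb on either side of an annotated transcript start, and none with 2 kb on either side of the 3′ end of a protein-coding gene. The criteria left 20075, 15796, 12941, 5385 and 4829 peaks in that order. These peaks are called Med12-free intragenic peaks below, where Med12-free means only that the Med12 list has no peak there. For comparison, 1115 peaks met the same width and position criteria and did overlap a Med12 peak. Another 2331 Med12-free peaks lay outside protein-coding genes and met the same width, start and 3′ end criteria. A further 7192 Med12-free peaks under 4000 bp wide lay within 1 kb of a coding start.

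RNA polymerase II (RNAP2) is loaded at promoters, often pauses shortly downstream of them, and then elongates through the gene body, so that ChIP-seq recovers it both at starts and along transcribed introns and exons. Mediator, of which Med12 is a subunit of the kinase module, bridges transcription factors at enhancers and promoters to RNAP2. RNAP2 inside a gene can therefore mark elongation, an enhancer or an internal promoter, and a peak list alone does not tell these apart.

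The chromatin came from distal forelimbs dissected from mouse embryos at E12.5, the stage on the sample labels (the series text gives E11.5), which the study describes as wild-type. The forelimbs were dissociated with collagenase to single cells and fixed with formaldehyde. A library each was made with an antibody to RNAP2 (ab5131), with an antibody to Med12 (A300-774A) and from input chromatin, and the RNAP2 and Med12 peak lists were analysed here. No library was replicated, so no difference between conditions or replicate error can be given, and every interval below covers counting error over peaks or genes of the same library. Neighbouring peaks share a gene and are not independent. The number of reads behind a peak is not part of the lists. The value of a peak is its score, 10 times the negative log10 of the p-value given by the peak caller, with a lowest value of 40. The score grows with read depth and peak width, so it was used to rank RNAP2 peaks within the list. As a check of the tissue label, the starts of Hoxa13 and Hoxd13, which mark the distal limb, carried RNAP2 peaks with scores of 1726 and 1855. An RNAP2 peak was found at a start of 61 of 68 limb transcription factor genes and 56 of 72 limb signalling genes. Such shares were not particular to limb genes, with 58 of 64 chromatin and transcription, 57 of 58 RNA processing and 51 of 55 housekeeping and cytoskeleton genes. The counts were 4 of 20 muscle, 4 of 20 ectoderm, 4 of 20 endothelial, 1 of 20 blood and 7 of 20 nerve and Schwann cell marker genes. The share over all protein-coding genes was 41.8%.

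The sequences under the peaks show the range of what the position criteria bring together. The central 200 bp of 8 peaks are given on the forward strand of mm9, in lower case. The first 3 are among the peaks with the highest scores and lie on tandem repeats in introns of Exoc6, Mepe and Srd5a2, and capitals mark the 12-base word that occurs most often in the stretch shown.
Exoc6, chr19:37752132-37752331: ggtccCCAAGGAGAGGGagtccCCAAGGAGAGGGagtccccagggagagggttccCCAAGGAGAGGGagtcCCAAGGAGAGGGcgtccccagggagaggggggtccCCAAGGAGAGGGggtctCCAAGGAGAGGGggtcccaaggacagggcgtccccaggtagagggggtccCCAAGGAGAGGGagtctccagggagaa
Mepe, chr5:104760459-104760658: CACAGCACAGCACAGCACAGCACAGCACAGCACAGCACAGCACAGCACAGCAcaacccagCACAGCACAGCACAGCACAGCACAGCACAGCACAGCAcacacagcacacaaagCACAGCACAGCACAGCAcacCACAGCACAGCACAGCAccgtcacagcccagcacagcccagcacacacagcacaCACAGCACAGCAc
Srd5a2, chr17:74382572-74382771: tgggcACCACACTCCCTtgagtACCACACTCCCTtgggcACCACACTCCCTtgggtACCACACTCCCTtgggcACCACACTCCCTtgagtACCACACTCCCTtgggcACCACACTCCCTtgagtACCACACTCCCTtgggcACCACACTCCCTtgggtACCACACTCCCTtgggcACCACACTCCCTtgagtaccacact
In the next 3, in introns of Prdm2, Mxi1 and Kcnq1, capitals mark CG dinucleotides, which are dense in CpG islands.
Prdm2, chr4:142751617-142751816: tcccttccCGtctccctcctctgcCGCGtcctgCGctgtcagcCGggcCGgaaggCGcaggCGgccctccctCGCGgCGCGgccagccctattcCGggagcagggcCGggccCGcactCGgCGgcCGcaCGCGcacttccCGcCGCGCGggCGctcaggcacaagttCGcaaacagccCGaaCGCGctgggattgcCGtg
Mxi1, chr19:53387821-53388020: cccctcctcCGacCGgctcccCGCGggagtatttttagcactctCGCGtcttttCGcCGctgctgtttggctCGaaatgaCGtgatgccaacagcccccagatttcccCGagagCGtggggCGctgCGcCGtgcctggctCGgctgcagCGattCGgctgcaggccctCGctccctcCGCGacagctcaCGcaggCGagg
Kcnq1, chr7:150481758-150481957: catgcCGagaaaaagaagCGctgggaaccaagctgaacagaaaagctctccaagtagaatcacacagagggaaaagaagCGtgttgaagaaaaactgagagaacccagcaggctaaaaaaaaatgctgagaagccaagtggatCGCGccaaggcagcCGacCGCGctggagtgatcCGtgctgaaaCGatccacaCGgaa
The last pair, from introns of Gli3 and Jazf1 and marked in the same way, holds few CG dinucleotides, like most of the Med12-free intragenic peaks.
Gli3, chr13:15727642-15727841: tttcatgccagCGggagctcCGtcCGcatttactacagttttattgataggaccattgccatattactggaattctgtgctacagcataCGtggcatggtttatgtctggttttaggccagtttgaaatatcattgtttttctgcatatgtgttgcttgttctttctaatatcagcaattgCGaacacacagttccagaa
Jazf1, chr6:52802508-52802707: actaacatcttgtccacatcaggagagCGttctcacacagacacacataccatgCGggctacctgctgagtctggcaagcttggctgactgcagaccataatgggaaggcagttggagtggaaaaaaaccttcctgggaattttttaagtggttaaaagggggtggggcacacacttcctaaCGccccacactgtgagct
The marked word occurred 7 times in the Exoc6 stretch, 20 times, with overlaps, in that of Mepe and 11 times in that of Srd5a2. CG was found 30 times in the Prdm2 stretch, 23 times in that of Mxi1 and 11 times in that of Kcnq1, against 5 times in Gli3 and 3 times in Jazf1.

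Med12-free intragenic peaks were mostly low. Their median score was 63.8 (95% interval of the median 62.5 to 65.2, quartiles 48.5 and 98.9), against 137 (127 to 147) for intragenic peaks with Med12, 67.0 (65.0 to 68.7) for intergenic peaks without Med12 and 272 (261 to 282) for Med12-free peaks at coding starts. Scores were at least 100 for 1187 of them (24.6%, 23.4 to 25.8%) and for 714 of the 1115 intragenic peaks with Med12 (64.0%), a difference of -39.5 percentage points (95% Newcombe interval -42.5 to -36.3). Only 334 peaks (6.92%) reached 200, 34 reached 500 and 6 reached 1000. Against the intergenic peaks, of which 29.1% reached 100, the difference was -4.55 points (-6.77 to -2.36). Their median width of 1214 bp lay between those of the intragenic peaks with Med12 (1371 bp) and the intergenic peaks (1128 bp).

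**Figure D1:**
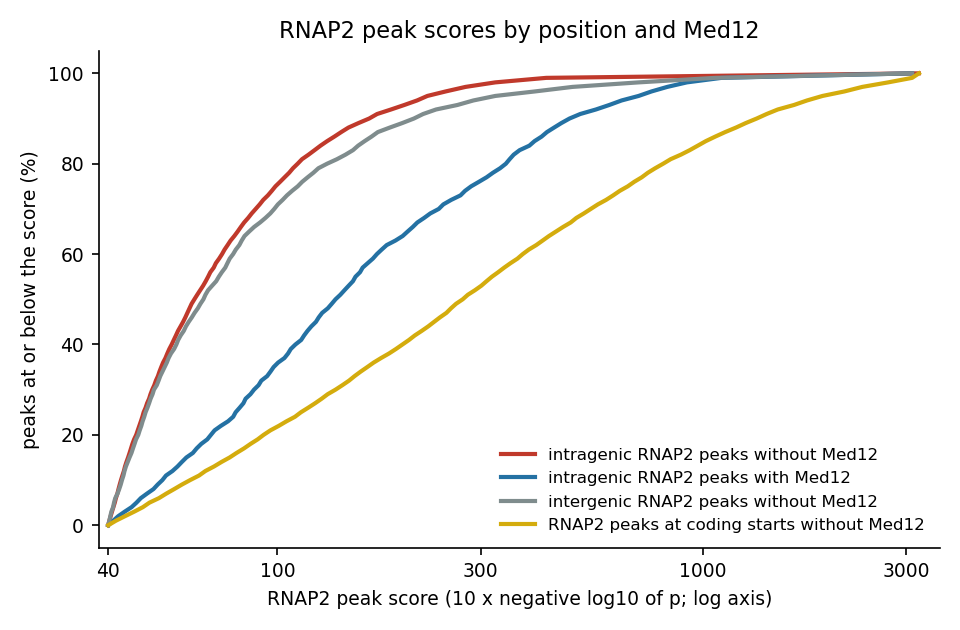
Cumulative share of RNAP2 peaks (%) against peak score on a log axis, for 4 groups of peaks defined by position and Med12 overlap. The Med12-free intragenic curve (red) lies close to the intergenic one, with medians of 63.8 and 67.0, and to the left of the intragenic peaks with Med12 (median 137) and of coding starts (median 272).

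The peaks nearest to each limit of the rule were as follows. The widest peak kept was 3979 bp, in Arf4 (score 508), and one of 4000 bp in Ppp2r2a (score 381) was left out, 1 of 73 that failed on width alone. A peak in Prrx1 was kept 1001 bp from a start and one in Ppp1cc, 994 bp away, was not, among 6496 that failed on this criterion alone. At 3′ ends, where 556 failed on this alone, a peak in Zfp266 at 2043 bp was kept and one in Nr4a1 at 1992 bp was left out. A peak in Slit2 lay 17 bp from a Med12 peak and was kept, whereas one in Mecom that shared 14 bp with a Med12 peak was not. Such near misses were few, since a Med12 peak lay within 500 bp of 51 Med12-free intragenic peaks (1.06%), and the median distance to the nearest Med12 peak was 38256 bp.

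Peaks of this kind were found in 1865 of 22380 protein-coding genes, or 8.33%. They accumulated in genes whose start was itself occupied by RNAP2, of which 1431 of 9354 (15.3%) held at least 1, against 434 of 13026 genes (3.33%) without an RNAP2 peak within 1 kb of a coding start. The gap was present in every class of gene length. Of genes of 30 to 100 kb, 592 of 2725 with RNAP2 at a start held a Med12-free intragenic peak (21.7%, 20.2 to 23.3%) and 111 of 2228 without (4.98%, 4.15 to 5.97%). Of genes of 100 to 300 kb the shares were 47.4% (44.3 to 50.5%) and 18.2% (15.8 to 20.8%), and of genes of 300 kb or more 71.4% (65.1 to 76.9%) and 38.6% (33.4 to 44.2%). Within the genes that had RNAP2 at a start, those with Med12-free intragenic peaks also had the higher start peaks. The median start score was 720 in holders and 334 in the other genes of 30 to 100 kb, and 440 and 228 in those of 100 to 300 kb. Genes with both Med12 and RNAP2 at a start were set against those with RNAP2 alone. This comparison was made within classes of length and was not matched for the score of the start peak. Of genes of 30 to 100 kb, 32.4% (28.6 to 36.4%) and 19.0% (17.4 to 20.7%), respectively, held a Med12-free intragenic peak. The shares were 9.49% (7.38 to 12.1%) and 5.69% (4.84 to 6.68%) at 10 to 30 kb, and 55.7% (48.9 to 62.2%) and 45.1% (41.6 to 48.6%) at 100 to 300 kb. In genes of 300 kb or more, 84.9% (72.9 to 92.1%) and 67.1% (59.6 to 73.7%) held one, with intervals that overlapped slightly. Under 10 kb, with 1.10% (0.469 to 2.54%) and 0.820% (0.505 to 1.33%), no difference was detectable.

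Seen from the peaks, 4190 of 4829 lay in a gene with RNAP2 at a start (86.8%, 85.8 to 87.7%), compared with 67.8% (65.0 to 70.5%) of intragenic peaks that overlapped Med12, a difference of 19.0 points (16.1 to 21.9). Because the peaks with Med12 had higher scores, the comparison was repeated within classes of score. The difference was 25.3 points (15.3 to 36.1) at scores from 40 to below 50, 27.0 points (19.6 to 34.7) from 50 to below 75, 21.9 points (14.3 to 30.2) from 75 to below 100, 22.3 points (16.8 to 28.1) from 100 to below 200 and 11.7 points (6.02 to 17.2) at 200 or more. In all 5 classes the Med12-free peaks thus had the larger share. Med12-free intragenic peaks also lay in shorter genes, with a median host length of 134978 bp against 216915 bp. Their median distance from the 5′ end was 66.0 kb, against 95212 bp for intragenic peaks with Med12. These distances are not scaled to gene length, so they do not show a position nearer the 5′ end relative to the gene.

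In genes of 100 kb or more the density of these peaks, counted per Mb of gene sequence that the position criteria allow, differed more between genes with and without RNAP2 at a start than along the gene. When each gene was divided into 5 equal parts from its 5′ end, genes with RNAP2 at a start held 6.23 peaks per Mb in part 1 (95% Poisson interval 5.57 to 6.95), then 9.07, 10.1, 10.9 and finally 11.99 per Mb in part 5 (11.05 to 12.98). Genes without RNAP2 at a start held 1.21 per Mb (0.954 to 1.52) in part 1 and 1.94 (1.60 to 2.32) in part 5, and the parts between them had 1.499, 1.31 and 1.49 per Mb. The density was thus higher in part 5 than in part 1 in both groups, 1.92-fold with RNAP2 at a start and 1.59-fold without. By absolute distance, the first 5 kb of allowed sequence had 8.84 peaks per Mb (6.25 to 12.1) in genes with RNAP2 at a start, the stretch from 10 to 20 kb had 5.91 (4.60 to 7.48), and that from 100 to 200 kb had 11.504 (10.7 to 12.3). Over all distances the density was 6.49 times that of the genes of 100 kb or more without RNAP2 at a start, and 8.42 times in shorter genes.

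**Figure D2:**
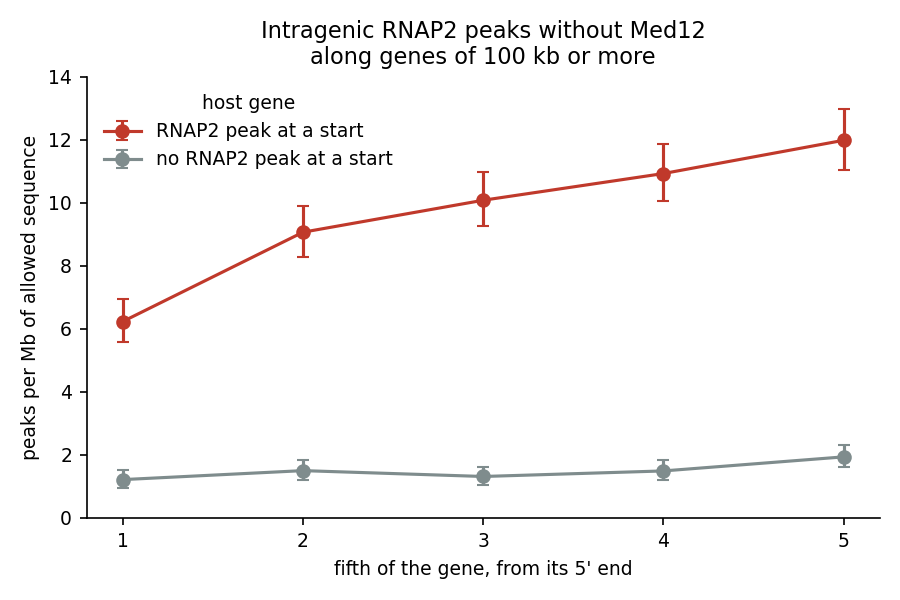
Density of Med12-free intragenic RNAP2 peaks (per Mb of allowed gene sequence) in 5 equal parts of protein-coding genes of 100 kb or more, from the 5′ end, with 95% Poisson intervals that cover counting error. Genes with RNAP2 at a start rise from 6.23 to 11.99 per Mb, and genes without one from 1.21 to 1.94 per Mb.

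The peaks were also crowded. Another RNAP2 peak lay within 5 kb of 2433 of them (50.4%, 49.0 to 51.8%), against 32.3% of intragenic peaks with Med12 and 21.2% of intergenic peaks, differences of 18.1 points (15.0 to 21.1) and 29.1 points (26.9 to 31.3). The first difference was present in all 5 classes of score, from 14.8 points (4.199 to 23.3) below 50 to 33.7 points (26.7 to 40.3) at 200 or more. The median gap to the nearest other RNAP2 peak was 4880 bp, against 13318 and 29469 bp. When Med12-free intragenic peaks separated by at most 1 kb were joined, 4322 runs remained, of which 378 held 2 or more peaks. The largest run held 8 peaks over 17.6 kb of Nedd4, which encodes a ubiquitin ligase, and runs of 7 were found in Tcf4 (13.99 kb) and Gli3 (13.6 kb). A list of peaks does not tell whether such a run is a set of separate sites or a broad domain that was split by the peak caller.

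At the level of genes, 1068 held a single Med12-free intragenic peak (22.1% of the peaks), 797 held 2 or more, and 79 genes with 10 or more held 1367 peaks (28.3%). All 79 had RNAP2 at a start, and 35 had Med12 there as well. The 12 genes with most peaks were Ebf1 (55), Gli3 (50), Zfhx3 (38), Mecom (36), Tcf4 (34), Nfia (31), Zmiz1 (31), Auts2 (29), Tns3 (28), Dach1 (26), Mbnl2 (25) and Frmd4a (22). Several encode transcription factors of mesenchymal and limb cells. Most of them are long, so the counts were also set against length, for which the average over all protein-coding genes was 0.475 peaks per 100 kb.

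Ebf1, an early B-cell factor that is also active in mesenchyme, is 391 kb long and had 14.1 peaks per 100 kb. Its peaks began 33.0 kb from the 5′ end and reached to 377 kb, with scores from 40.2 to 278 and a median of 82.4, and covered 23.0% of the gene. Gli3, the transcription factor that acts largely as a repressor in Hedgehog signalling and sets digit number, had 18.7 peaks per 100 kb over its 267 kb. Its scores ran from 40.9 to 365 with a median of 96.8, 25 of the 50 reached 100, and only 2 intragenic peaks of Gli3 overlapped Med12. The start of Gli3 carried an RNAP2 peak with a score of 2637. The peaks of Gli3 covered 32.5% of the gene. Neighbouring peaks lay a median of 5.40 kb apart in Ebf1 and 3.33 kb in Gli3.

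Zfhx3, a large zinc finger homeobox factor, had 38 peaks with a median score of 72.1. Its highest, at chr8:111475320-111479214 in an intron 239 kb from the 5′ end, reached 909 and was an exception, since the next in Zfhx3 had 223. None of the intragenic peaks of Zfhx3 overlapped Med12. Mecom, which encodes the factor EVI1, had 36 Med12-free peaks and 10 with Med12, and Nfia, a nuclear factor I gene, 31 and 7. In Nfia the first Med12-free peak lay 92.7 kb from the 5′ end and the last at 346 kb of 429 kb. Auts2 had 29 Med12-free peaks in 1106 kb, or 2.62 per 100 kb, and 9 with Med12. The genes with many peaks thus differed in how many of their intragenic RNAP2 peaks overlapped Med12, from 0 in Zfhx3 and Dach1 to 10 in Mecom. Med12 peaks that met no RNAP2 peak are outside this count. In Dach1, the Med12-free peaks at chr14:98299261-98300878 and chr14:98295689-98296832 lay 654 and 981 bp from a Med12 peak.

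**Figure D3:**
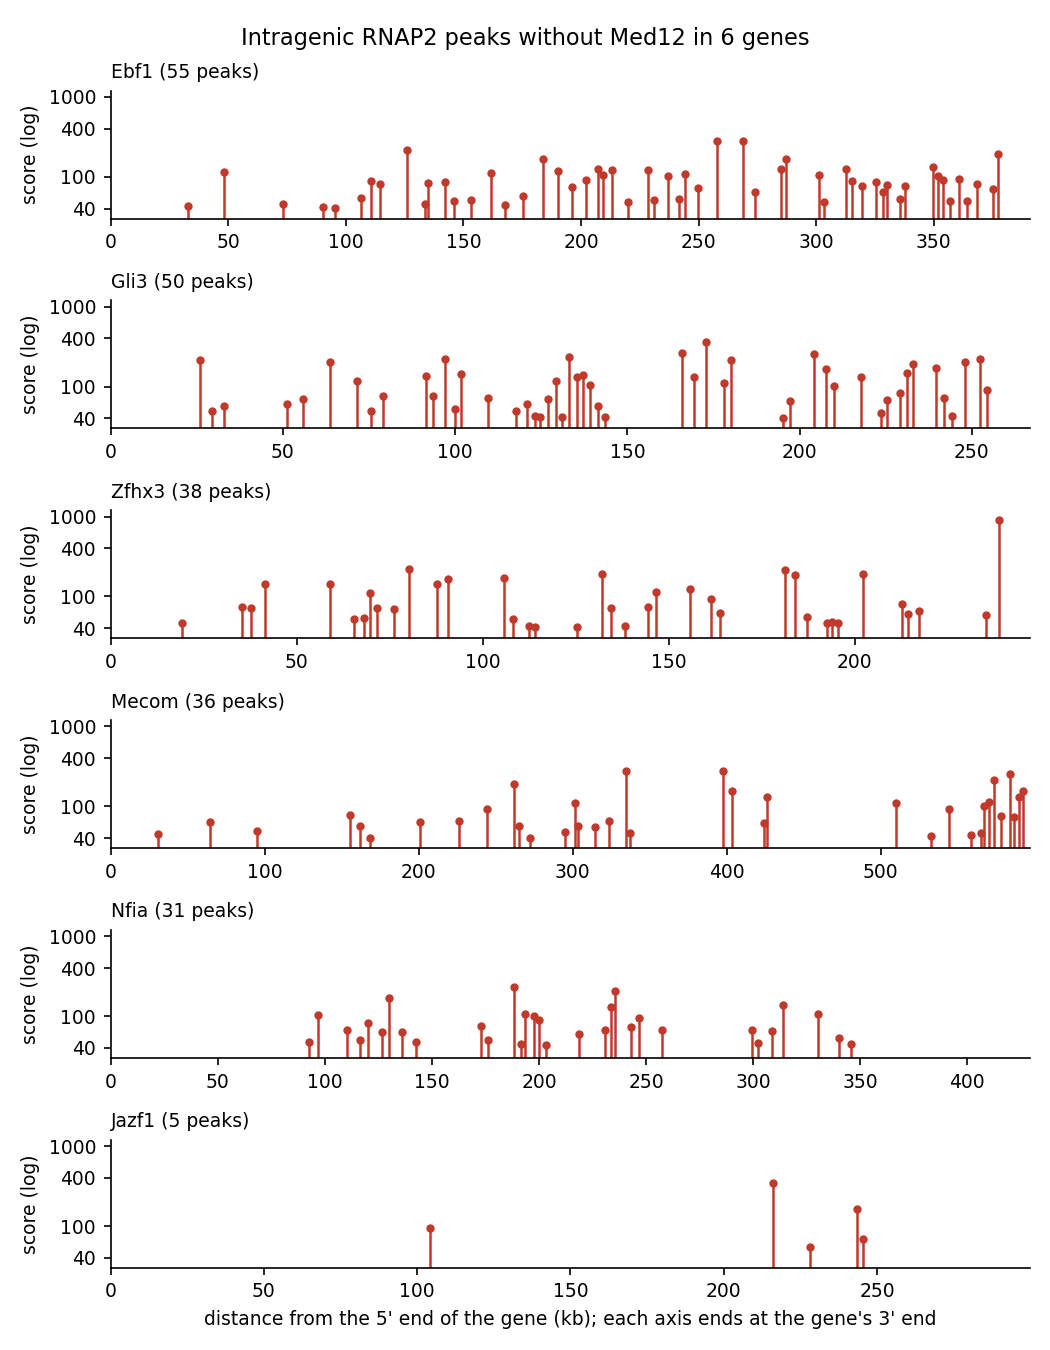
Med12-free intragenic RNAP2 peaks in Ebf1, Gli3, Zfhx3, Mecom, Nfia and Jazf1. The horizontal axis is the distance of the peak centre from the 5′ end of the gene in kb and ends at its 3′ end, and the height of each line is the peak score on a log axis. Peaks are spread over most of Ebf1 and Gli3, the peak with a score of 909 stands out near the 3′ end of Zfhx3, and Jazf1 has 5 peaks.

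The highest densities were reached in shorter genes, chosen here from those with at least 5 peaks. Ddx6, an RNA helicase that represses translation, held 10 peaks in 35.8 kb (27.9 per 100 kb), and they covered 56.3% of the gene. Sf3b1, a core component of the spliceosome, held 11 in 42.3 kb (26.0 per 100 kb), and 9 of the 11 overlapped an exon. Skil (21.8 per 100 kb), Syncrip (21.3), Asxl1 (20.6) and Pcbp2 (20.4) followed, of which Skil encodes a repressor of TGF-beta signalling, Syncrip and Pcbp2 RNA-binding proteins and Asxl1 a chromatin regulator. None of these 6 genes held an intragenic peak with Med12. All 6 had RNAP2 at a start, with scores from 434 in Pcbp2 to 3100 in Skil. Skil, Asxl1 and Pcbp2 also had a Med12 peak at a start, whereas Ddx6, Sf3b1 and Syncrip did not.

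Lists of genes by function were compared with protein-coding genes of the same classes of length, because a long gene offers more room for a peak. They were also compared with genes matched for length class and for the presence of RNAP2 at a start. The score of the start peak was not matched. Its median, counting genes without one as 0, was 2178 for RNA processing and 1799 for housekeeping and cytoskeleton genes. It was 855 for limb transcription factor, 620 for chromatin and transcription, 424 for limb signalling and 225 for cartilage and matrix genes. In each marker list of other cell types and in the long neuronal list it was 0. Of 68 limb transcription factor genes, 34 held a Med12-free intragenic peak (50.0%), whereas the shares of all genes in the same length classes would give 11.47, and those of genes also matched for RNAP2 at a start 15.4. Beside the genes above, they included Prrx2, Prrx1, Tshz1 and Tbx5. Tbx5, the gene that initiates the forelimb, held 8 peaks with scores from 48.0 to 334. Prrx1, a homeobox factor of limb mesenchyme, held 10 with scores from 51.5 to 275, Prrx2 held 2 with scores of 78.6 and 547, and Tshz1, a zinc finger factor, 2 with scores of 162 and 421. Short genes had little room. Sox9, Hoxa13 and Hoxd13, of 5.54, 3.18 and 3.29 kb, had RNAP2 at the start and no peak of this kind. In Hoxa13 and Hoxd13 the absence follows from the rule, since the sequence it allows is shorter than the narrowest peak kept, 528 bp.

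Of 72 limb signalling genes 42 held a peak (58.3%, against 12.9 from the length classes and 16.6 with RNAP2 at a start also matched). Smad7, an inhibitor of BMP and TGF-beta signalling, had peaks with scores of 627 and 56.9. Epha4, an ephrin receptor, had 16 peaks with a median score of 127 and a highest of 452. Ptch1, the Hedgehog receptor and a target of the pathway, had 7 with scores from 47.1 to 399, and Ror2, a receptor for Wnt5a, 7 with scores from 46.7 to 398. Notch2 had 7 and Fgfr2 had 10, although the annotated span of Fgfr2 is 3009 kb and includes other genes. Shh, Grem1, Bmp4 and Fmn1 had no RNAP2 peak at a start and no Med12-free intragenic peak, Fmn1 despite its length of 389 kb. Among cartilage and matrix genes, 16 of 45 held a peak (35.6%, against 8.14 and 9.36 in the same order). Fbn2, the embryonic fibrillin, had 14 with scores from 42.6 to 410, Ltbp1 had 10 and Col5a1 had 4, while Col4a2 had 1 with a score of 74.4.

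Genes of general machinery also exceeded both shares. Of 64 genes of chromatin and transcription 38 held a peak (59.4%, against 12.55 from the length classes and 17.2 with RNAP2 at a start also matched), among them Crebbp, a histone acetyltransferase, with 18 (13.9 per 100 kb), Arid1a, a subunit of the BAF remodelling complex, with 10 and a highest score of 533, and Kdm5b, a histone demethylase, with 7. Chd2, a chromatin remodeller, and Asxl1 had 12 each. Of 58 RNA processing genes 24 held a peak (41.4%, against 5.58 and 8.42), at 4.94 peaks per 100 kb. Mbnl2, a splicing regulator, had 25 with a median score of 99.6, and Dhx9, an RNA helicase, had 3, the highest at 593. Of 55 housekeeping and cytoskeleton genes 15 held a peak (27.3%, against 5.50 and 7.20). Vcl, which encodes vinculin, had 13, and Actn4, an actinin, 8.

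Markers of other cell types held peaks in numbers near those of the length classes. Muscle markers had 1 holder of 20 (against 2.27 from the length classes and 1.54 with RNAP2 at a start also matched), which was Pax3, with 3 peaks and scores from 89.6 to 237. Ectoderm markers had 1 of 20 (against 1.42 and 0.854), Tcfap2a, blood markers 2 of 20 (against 1.38 and 0.895), Runx1 and Ptprc with 1 peak each, and nerve and Schwann cell markers 3 of 20 (against 2.67 and 2.33), Ncam1, Isl1 and Syt1 with 1 each. Endothelial markers had 3 of 20 (against 2.50 and 1.93), of which Erg held 7 peaks and Emcn and Flt1 held 1 each. Genes of neuronal adhesion and synapses, with a median length over 1 Mb, served as a list of long genes. Of these, 21 of 39 held a peak, against 20.2 from the length classes and 17.8 with RNAP2 at a start also matched. The longest class, 300 kb or more, has no upper limit, so these genes are not closely matched for length. Their density was 0.193 per 100 kb, against 0.475 over all protein-coding genes. Auts2 and Odz4, which held 29 and 13 of the 86 peaks in this list, both had RNAP2 at a start.

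**Figure D4:**
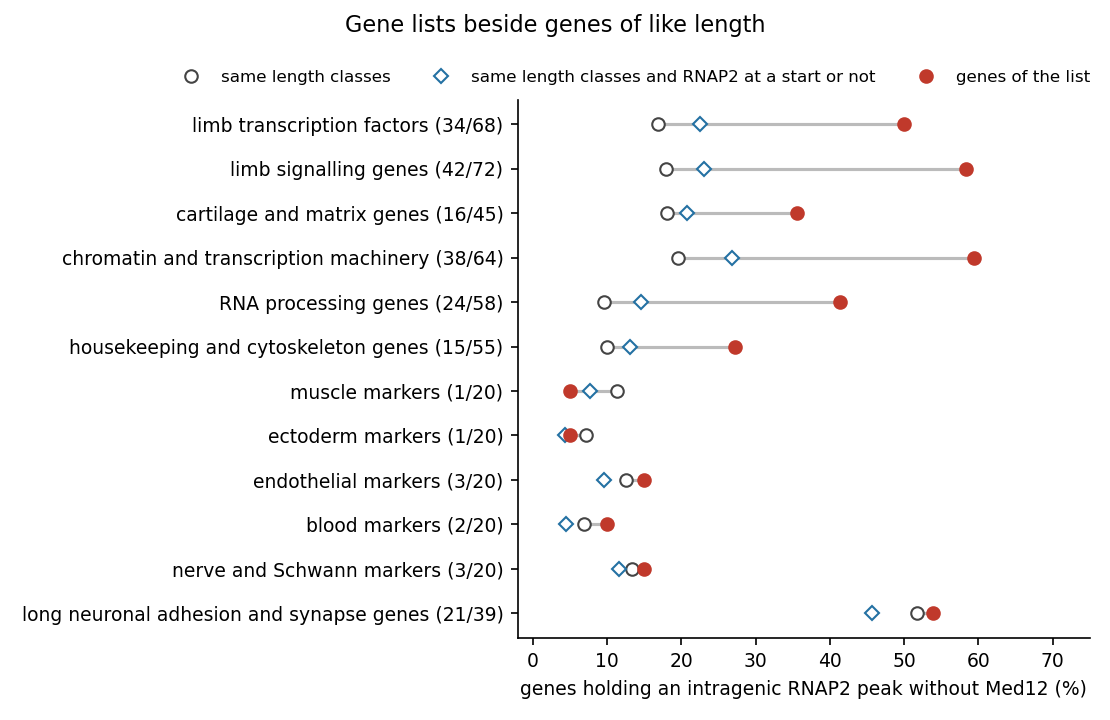
Share of the genes of each list that hold a Med12-free intragenic RNAP2 peak (red, with the counts beside the names) and the share that all protein-coding genes of the same length classes give (open circles), or those also matched for RNAP2 at a start (blue diamonds), in percent. The 6 lists of limb, matrix, chromatin, RNA processing and housekeeping genes lie to the right of both. The marker lists of other cell types and the long neuronal genes lie near theirs or, for muscle markers (5% against 11.4%), to the left. Start scores were not matched, and the longest length class, 300 kb or more, has no upper limit.

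Within genes, the centres of 4585 peaks lay in introns (94.9%, 94.3 to 95.5%), of 124 in coding exons (2.57%) and of 120 in noncoding parts of exons (2.48%). Exons make up 3.88% of the gene sequence that the position criteria allow. Contact with exons was more common than in the peaks with Med12. An exon was overlapped by 1066 peaks (22.1%) and by 10.4% of intragenic peaks with Med12, a difference of 11.7 points (9.43 to 13.7). The difference lay between 12.3 points (4.396 to 16.8) at scores below 50 and 18.4 points (12.49 to 24.3) at 200 or more. Peaks that overlapped an exon had a median score of 69.7, against 62.3 for the others, and were wider, at a median of 1324.5 bp against 1189 bp.

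In base composition the Med12-free intragenic peaks were poor in CpG, with a median GC content of 42.4% and a median ratio of observed to expected CpG of 0.201 (0.197 to 0.204). The ratio was 0.235 (0.227 to 0.240) in intragenic peaks with Med12, 0.240 in intergenic peaks and 0.706 at coding starts. CpG-rich sequence, taken as a ratio of 0.6 or more and a GC content of 50% or more, was found in 51 peaks (1.06%). The share was lower than the 6.74% of intergenic peaks, a difference of -5.68 points (-6.80 to -4.68). It was higher than the 0.359% of intragenic peaks with Med12, a difference of 0.697 points (0.0833 to 1.09). These 51 had a median score of 136. Prdm2, a histone methyltransferase gene, had the highest of them, with a score of 1244 and a CpG ratio of 0.864, 51.2 kb from the 5′ end in an intron. Mxi1, which encodes a MYC antagonist, had a peak 2733 bp wide (score 825, ratio 0.740), and a Med12 peak lay 476 bp from it. In Nup160, a nucleoporin gene without an RNAP2 peak at its annotated start, a peak with a score of 857 and a ratio of 0.849 lay 2.19 kb inside.

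A further annotation was used to look for starts that the rule had not known. Of 32851 RefSeq promoter sequences, defined on GRCm38.p6 as 250 bases before to 50 after a start, 31935 matched mm9 exactly at 1 place. Of the Med12-free intragenic peaks, 72 (1.49%) had such a start within 1 kb and 41 (0.849%) had it inside, against 5.36% of intergenic peaks with a start inside. Of intragenic peaks with Med12, 0.987% had a start inside, and no difference was detectable (-0.138 points, -0.940 to 0.391). Within 1 kb their share was 2.51%, a difference of -1.02 points (-2.16 to -0.162). The 41 had a median score of 112. Foxp1 had a RefSeq start inside the peak with a score of 831 that the rule assigns to Eif4e3, a gene whose annotated span of 409 kb runs across this position. In Macf1, a cytoskeletal linker gene, a peak with a score of 779 and a CpG ratio of 0.650 held the RefSeq start of D830031N03Rik, 272 kb from the 5′ end. In Kcnq1, the peak at chr7:150480725-150482990, with a score of 287 and a CpG ratio of 0.655, held the RefSeq start of Kcnq1ot1, the imprinted RNA transcribed antisense to Kcnq1. No RNAP2 peak was listed at a coding start of Kcnq1. Lzts2, Fam118a, Ddx17 and Ppfibp2 had RefSeq starts of the same gene inside peaks with scores of 399, 358, 336 and 281.

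The highest scores belonged to a different kind of sequence. Exoc6 (3215), Mepe (3100), Accn4 (2412) and Actr3b (2331) had the 4 highest peaks, and none of these genes had RNAP2 at a start. In each of them the peak was its gene's only one. The exact score of 3100 recurred, as at the starts of Skil, Lrig3, Chd2 and Vcl and as the highest score of the intergenic peaks. Whether it is a limit of the caller was not tested, so ranks near it may not be exact. The share of 12-base words that occurred 3 or more times within the peak was 25.1% in Exoc6, 60.7% in Mepe, 70.5% in Accn4 and 72.0% in Actr3b (the arrays of Exoc6 and Mepe are printed above). Such internal repetition, at a share of 25% or more, was found in 54 of the 4829 peaks (1.12%). It was found in 1.33% of intergenic peaks without Med12, a difference of -0.212 points (-0.821 to 0.305). The figure was 0.359% for intragenic peaks with Med12, a difference of 0.76 points (0.142 to 1.16). Internal repetition was found in 4 of the 6 peaks with a score of 1000 or more and in 7 of the 34 with a score of 500 or more. Exoc6 had the lowest share of the 54 and only just passed the limit, so these counts depend on where the limit is set. The 54 peaks had a median score of 78.9, and 64.8% of them lay in genes with RNAP2 at a start. Srd5a2, a steroid 5-alpha reductase gene, had the fifth such peak by score (946), again without RNAP2 at a start. Whether repeated sequence plays a part in these scores was not tested. The other peaks among the 12 highest were those of Prdm2, Zfhx3, Nup160, Eif4e3 and Mxi1 given above, that of Sh3pxd2a (1019), a podosome adaptor gene, and that of Lrig3 (838), which has a start peak with a score of 3100.

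**Figure D5:**
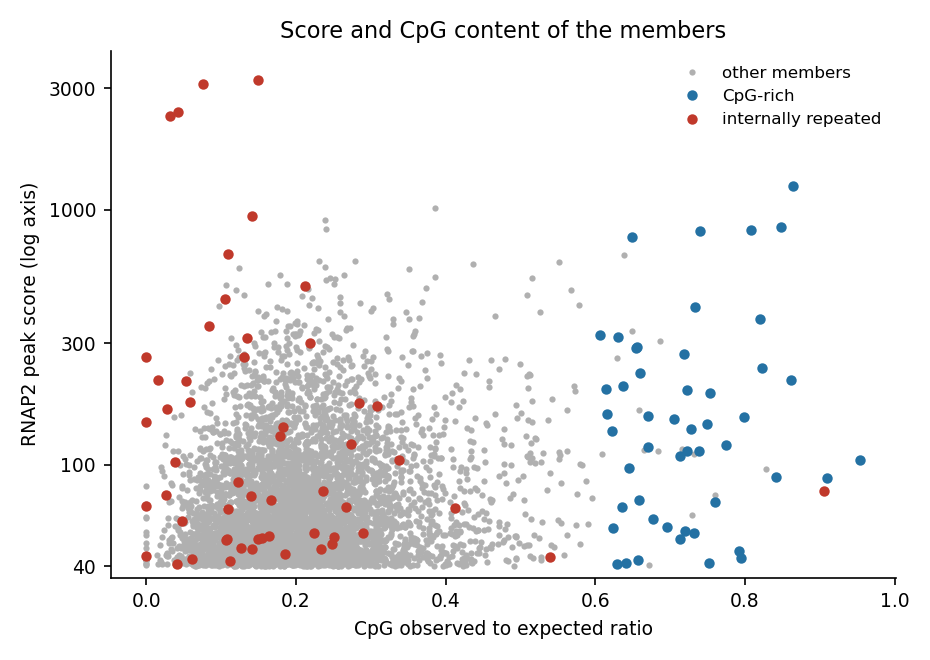
Score (log axis) against the ratio of observed to expected CpG of the 4829 Med12-free intragenic RNAP2 peaks, each point a peak. The 54 internally repeated peaks (red) include the 4 highest scores, at ratios below 0.2, and the 51 CpG-rich peaks (blue, apart from 1 that is also repeated) reach 1244. The highest peak, in Exoc6, only just passes the limit of 25% for internal repetition.

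Short motifs were counted on both strands of the central 300 bp. Several were rarer in Med12-free intragenic peaks than in intragenic peaks with Med12. Unlike those of starts, neighbours and exons, the motif comparisons were not repeated within classes of score, and the peaks with Med12 had higher scores. CCAATAAA, an octamer bound by posterior Hox factors, was found in 2.22% against 4.22% (difference -1.999 points, -3.40 to -0.873), and AGGGGGC, a part of the CTCF motif, in 2.71% against 5.74% (-3.03 points, -4.61 to -1.71). TATAAA was found in 26.9% against 35.3% (-8.39 points, -11.5 to -5.37), AATAAA, the polyadenylation signal, which the octamer contains, in 39.1% against 47.1% (-7.97 points, -11.2 to -4.74), and CCAAT, which it also contains, in 35.0% against 39.3% (-4.29 points, -7.48 to -1.15). CAGATG, an E-box, was found in 23.5% against 26.5% (-3.04 points, -5.96 to -0.256). For the other 6 motifs the interval of the difference included 0, so that none was detectable with these numbers. They were TGACTCA of AP-1, the GC box GGGCGG of SP and KLF factors, CCGGAAG of ETS factors, the E-box CACGTG, the cyclic AMP response element TGACGTCA and, for NRF1, GCATGCGC. The AP-1 motif was found in 5.05% and 4.04% of the peaks, a difference of 1.02 points (-0.428 to 2.22). Against intergenic peaks, the GC box was rarer (5.03% against 11.9%, -6.85 points, -8.35 to -5.44), as was AGGGGGC (-2.61 points, -3.68 to -1.63). Smaller differences in the same direction were found for CCAAT (-2.45 points, -4.84 to -0.0853) and CCGGAAG (-1.66 points, -2.48 to -0.943). The same held for CACGTG (-1.40 points, -2.49 to -0.395) and CCAATAAA (-0.787 points, -1.65 to -0.019). For the remaining motifs the interval included 0. A match is a run of letters and not a measured binding site.

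Beside the HoxA cluster, where the study looked for enhancers of Hoxa13 and its neighbours in the genes Hibadh, Tax1bp1 and Jazf1, 9 Med12-free intragenic peaks were found, all on chromosome 6 and with their centres in introns. Hibadh, a gene of valine breakdown, held 1 with a score of 44.8. Tax1bp1, an autophagy receptor gene, held 3 with scores of 78.5, 48.8 and 68.2. Jazf1, a zinc finger gene of 300 kb without an RNAP2 peak at a coding start, held 5, with scores of 68.2, 162, 54.7, 350 and 95.3, beside 8 intragenic peaks with Med12. Of the regions that the study tested in transgenic embryos, 1 overlapped a Med12-free intragenic peak, e13, which meets the Jazf1 peak at chr6:52801886-52803330, with a score of 350 and 8314 bp from the nearest Med12 peak. The other 7 that fell on intragenic RNAP2 peaks in Hibadh and Jazf1 met peaks with Med12, with scores from 70.5 (e15) to 876 (e16). The peak at chr6:52789535-52791242 lay 41 bp from the RNAP2 peak of e12, and that at chr6:52913972-52915056 lay 288 bp from the RNAP2 peak of e16. With scores of 54.7 and 95.3, against 816 and 876 for the Med12-bearing neighbours, both were the lower of their pair.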

How the data were processed

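RNAP2 and Med12 ChIP-seq of distal forelimb at E12.5 was analysed from peak lists, 1 library per antibody. The authors mapped reads to mm9 with Bowtie and called peaks with MACS 1.4.1. The deposited value is the caller's score, the negative log10 of its p-value multiplied by 10. The lists reach down to a score of 40, below the p-value threshold of 1e-05 in the methods, which do not state that the input served as control. Scores under 50 do not reach that threshold and belonged to 1361 of the 4829 Med12-free intragenic peaks (28.2%). They also belonged to 27.2% of intergenic peaks without Med12 and 7.44% of intragenic peaks with Med12. Positions were compared with the GENCODE vM1 genes of mm9 in Python 3.11.15 with numpy 2.4.6, with at least 1 bp as overlap, and bedtools 2.31.1 gave the same 4829 peaks. The rule was also checked on simulated data. A peak was assigned to the gene it overlaps most. RefSeq promoters were matched with minimap2 2.31, keeping exact matches. The reference sequence carries no repeat masking, so the share of 12-base words occurring 3 or more times within a peak was used in its place. Intervals are Wilson, Newcombe and exact Poisson intervals from scipy 1.17.1. No test was run, as there are no replicates.

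The peaks and gene lists were chosen with earlier results of these data known. Of 502 list entries, 5 were matched by an older symbol and 1 was not matched. Genes named are the 12 highest peaks, the 12 genes with most peaks, up to 6 genes per list by highest score, those beside HoxA, up to 8 with RefSeq starts and those nearest a threshold. The 6 densest genes, the longest runs, and list genes named for holding no peak were chosen after their values were seen. Wiggle tracks and the input were not analysed here. The values of 1 gene are not reported here.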

Additional observations from a re-analysis of the deposited data

How the results depend on the processing

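The 8 summary values of the Med12-free intragenic peaks were recomputed under 9 other settings and 1 added after the data were seen, the removal of internally repeated peaks. Of these 80 values 59 stayed within 1.5 times the count or within the 95% interval of the reported value, including all 8 without repeated peaks, without the sex chromosomes and under either definition of Med12 overlap. With both lists restricted to a score of at least 100, which also drops low Med12 peaks, 1539 peaks in 794 genes remained, with a median score of 150.2, 77.6% in genes with RNAP2 at a start, 95.9% in introns, a median distance from the 5′ end of 74.2 kb, 41.0% within 5 kb of another RNAP2 peak and a CpG ratio of 0.223. At a score of at least 50 in both lists, 3614 peaks in 1496 genes remained. There the median score was 80.1, the share with RNAP2 at a start 85.0%, the share within 5 kb of another peak 48.7% and the CpG ratio 0.206. Peaks narrower than 2000 bp gave a median score of 60.1, 85.7% with RNAP2 at a start and 46.6% within 5 kb of another peak. A start interval of 5 kb gave 95.7% in introns, 77.8 kb and 47.3% within 5 kb of another peak, protein-coding starts alone 94.0% in introns and 62.4 kb, and a 3′ interval of 5 kb 96.4% in introns. No paired analysis was possible because the lists come from different antibodies without replicates. A single library per antibody also means that a missing Med12 peak may lie below the threshold of that list, and that none of the shares has an error between embryos. The lists give no reads per peak.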
